A study of Mus musculus with 26 samples.

Results

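The imprinted growth genes described here are H19, Igf2, Mest, Peg3, Peg10, Plagl1, Cdkn1c, Grb10, Zim1 and Gnas, which were taken by gene name. They are 10 of the 18194 named genes on the array, and each was read from the probe set with the highest mean among those annotated to its symbol. A probe set is a group of short oligonucleotides that together report 1 transcript region. Of the 10 genes, 9 passed the filter on low values, which kept 12735 genes that lay above their own array's median in at least 3 of the 26 arrays. Zim1 lay above the median in 0 arrays. Peg10 passed with exactly 3 arrays.

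The samples were immortalised clonal adipose lines of background strain 129SVE from Taconic, of which 23 came from inguinal fat and 3, the clones BAT1, BAT6 and BAT8, from interscapular fat. Inguinal fat holds white and beige adipocytes and interscapular fat holds brown adipocytes, and beige clones cannot be told from white ones by the labels. Per the sample protocols, the clones of both groups were fully differentiated and all received forskolin, an activator of adenylyl cyclase, for 4 h before RNA extraction, so no untreated level was measured. The levels of adipocyte genes, given below, differed widely between clones. The sample protocols give its dose as 10 millimolar, but the text on the whole series gives 10 micromolar. Each clone is a line with 1 array, so a spread or a p-value below describes differences among clones together with array error, not repeated cultures. Array medians lay between 40.36 and 45.84 intensity units. Levels are given as log2(intensity + 16), in which differences of dim genes are understated, and levels of different probe sets were not compared.

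Imprinted genes are expressed mainly from the allele inherited from one parent, and the parental alleles are told apart by DNA methylation of a control region, set in the germ line and kept through later cell divisions. Many of them control fetal growth and the size of tissues. In mice, growth promoters such as Igf2, Mest, Peg3 and Peg10 are expressed from the paternal allele, and growth restrainers such as H19, Cdkn1c and Grb10 from the maternal allele in most tissues. In adipose tissue Mest is known as a marker of expanding fat. The arrays measured the total RNA of both alleles and carry no information on which allele was expressed.

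The promoter sequences of the 3 genes that varied most among the inguinal clones, Grb10, Plagl1 and Peg3, are shown first. They are RefSeq sequences of build GRCm38.p6, from 250 bases before to 50 bases after an annotated start, written on the strand of the gene. Capitals mark CpG dinucleotides, the sites of DNA methylation, in the Grb10 and Plagl1 windows. The Grb10 windows are chr11:12037371-12037670 and chr11:12027922-12028221 on the minus strand, and the Plagl1 window is chr10:13090582-13090881 on the plus strand.
Grb10, first window: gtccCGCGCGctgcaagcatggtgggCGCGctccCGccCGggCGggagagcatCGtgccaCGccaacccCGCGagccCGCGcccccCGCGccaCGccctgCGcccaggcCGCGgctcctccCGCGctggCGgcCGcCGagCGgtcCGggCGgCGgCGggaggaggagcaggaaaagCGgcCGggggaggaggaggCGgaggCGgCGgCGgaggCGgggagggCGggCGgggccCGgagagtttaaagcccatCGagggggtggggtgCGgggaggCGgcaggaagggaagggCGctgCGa
Grb10, second window: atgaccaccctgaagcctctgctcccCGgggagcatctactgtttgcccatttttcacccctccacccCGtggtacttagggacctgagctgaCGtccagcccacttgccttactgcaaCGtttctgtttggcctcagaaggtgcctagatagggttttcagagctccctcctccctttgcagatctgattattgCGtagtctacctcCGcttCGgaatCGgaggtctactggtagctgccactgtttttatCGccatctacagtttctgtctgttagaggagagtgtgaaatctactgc
Plagl1: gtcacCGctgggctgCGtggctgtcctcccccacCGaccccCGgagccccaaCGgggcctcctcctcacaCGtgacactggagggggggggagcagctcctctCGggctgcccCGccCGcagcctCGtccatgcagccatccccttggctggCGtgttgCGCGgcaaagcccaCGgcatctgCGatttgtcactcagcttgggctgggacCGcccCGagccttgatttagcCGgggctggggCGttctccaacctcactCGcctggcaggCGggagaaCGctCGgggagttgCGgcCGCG
The first Grb10 window holds 45 CpG dinucleotides, the second 9 and the Plagl1 window 26, against a median of 7 over 32851 promoter windows of the same length. These windows place the genes. No methylation was measured.

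The Peg3 window, chr7:6730370-6730669 on the minus strand, is shown for the motifs in it, which are in capitals there.
Peg3: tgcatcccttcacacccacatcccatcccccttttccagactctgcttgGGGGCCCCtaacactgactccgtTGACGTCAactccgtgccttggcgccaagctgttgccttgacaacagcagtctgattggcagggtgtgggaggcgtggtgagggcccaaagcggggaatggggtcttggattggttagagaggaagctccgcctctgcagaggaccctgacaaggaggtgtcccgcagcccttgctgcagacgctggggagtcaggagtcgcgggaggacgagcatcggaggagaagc
It holds GGGGCCCC, a core of the sequence bound by Plagl1, and TGACGTCA, the full cyclic AMP response element. Both motifs read the same on either strand and were searched on both strands, and they do not overlap each other here. GGGGCCCC was present in 1.08% and TGACGTCA in 1.79% of all windows of this length. Another motif, GCCATNTT, the sequence bound by Yy1, was present in 6.05% of all windows and in 0 of the 16 windows of the imprinted growth genes, which cover 7 of the 10 genes. The Peg3 window overlaps that of its neighbour Usp29 by 263 bases. H19, Peg10 and Cdkn1c had no window. The H19 probe set is annotated to both H19 and Mir675, a microRNA gene that lies inside H19, and its level is that of the shared transcript and not of the mature microRNAs. The mature sequences are shown because they are a product of this transcript, with the seed (bases 2 to 8) in capitals, and the seeds of the arms differ.
mmu-miR-675-5p: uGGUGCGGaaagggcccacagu
mmu-miR-675-3p: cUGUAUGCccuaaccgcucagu

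Among the inguinal clones the imprinted growth genes differed widely in how much they varied. The SD over 23 clones was 1.71 for Grb10, 1.11 for Peg3, 1.10 for Plagl1 and 0.82 for Cdkn1c. These 4 lay above the 90th percentile of the SD of all kept genes, which was 0.60, and the median SD of all kept genes was 0.32. Peg10 at 0.44, Igf2 at 0.41 and Mest at 0.35 lay above that median. H19 at 0.30 and Gnas at 0.19 lay below it. These SDs are a description, and no test was applied to them.

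**Figure D1:**
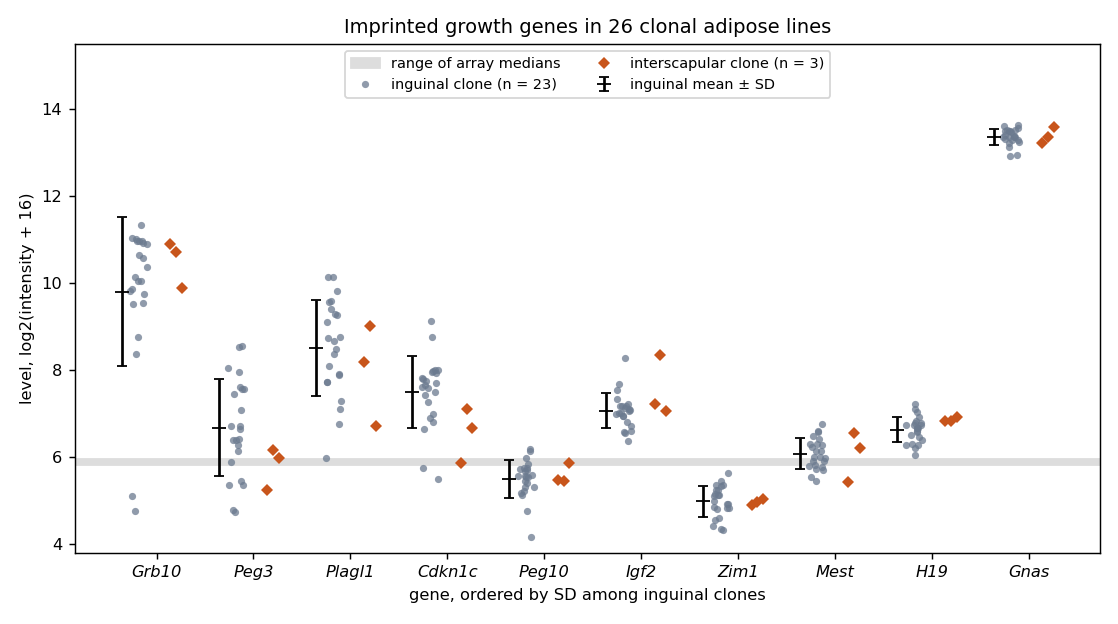
Level of each imprinted growth gene in log2(intensity + 16) on the vertical axis, with 1 point per inguinal clone (n = 23) and 1 per interscapular clone (n = 3). Grb10 shows clones A3 and A5 at 5.11 and 4.77, apart from the other 21 clones at 8.36 or above, while the Gnas points lie between 12.93 and 13.64.

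Among the growth restrainers, Grb10, an adaptor protein that dampens insulin and Igf1 receptor signalling, was lowest in A5 at 4.77 and in A3 at 5.11, had a median of 10.14 and was highest in B13 at 11.34. In intensity units these values were 11.4 in A5, 18.5 in A3, 1110 at the median and 2580 in B13. The next lowest clone, X9, stood at 8.36, so A3 and A5 formed a separate pair. They were also the only inguinal clones in which Grb10 did not exceed the array median. From A5 to B13 the range was 6.57 on the log2 scale, and no fold is given because the low end lies among the dim probe sets, where the pseudocount sets its size. BAT1, BAT6 and BAT8 stood at 10.89, 10.72 and 9.89, inside the range of the 21 other inguinal clones. Without A3 and A5 the SD was 0.79, which was still above that of 96.1% of the other kept genes. A3 and A5 were scanned on different scanners and in different sessions. A second Grb10 probe set ran with the first, with a Pearson r of 0.78 and a Spearman rho of 0.91 over the clones, and the remaining probe set gave r = 0.31.

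Cdkn1c, the p57 inhibitor of cyclin-dependent kinases, was lowest in I2 at 5.49, had a median of 7.66 and was highest in M4 at 9.14. G10, at 5.75, was the only other inguinal clone not above its array median. BAT1, BAT6 and BAT8 stood at 5.86, 7.10 and 6.67. All 3 were below the inguinal median, and 17 of 23 inguinal clones lay above the highest of them. H19, a non-coding RNA that restrains growth, ranged from 6.05 in G10 through a median of 6.67 to 7.23 in A3, and stood at 6.83, 6.83 and 6.93 in BAT1, BAT6 and BAT8. Of 23 inguinal clones, 19 lay below the lowest interscapular clone in H19 and 4 above the highest, so the depots overlapped. H19 exceeded the array median in all 26 arrays.

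Among the growth promoters, Peg3, a large zinc finger protein, was lowest in X7 at 4.73 and A3 at 4.79, had a median of 6.65 and was highest in M3 at 8.55 and N13 at 8.53. In intensity units Peg3 ran from 10.6 through 84.1 to 359. In 18 of 23 inguinal clones Peg3 exceeded the array median, so its low end lies among the dimmer probe sets. BAT1, BAT6 and BAT8 stood at 5.25, 6.16 and 5.97, in the lower part of the inguinal range, and 16 inguinal clones exceeded all 3. The next brightest Peg3 probe set gave a similar order of clones, with r = 0.91 and rho = 0.90. The remaining Peg3 probe sets, above the array median in at most 1 array, gave r = 0.76, 0.34 and 0.19.

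Igf2, the fetal insulin-like growth factor, was lowest in E3 at 6.38, had a median of 7.07 and was highest in G23 at 8.28. The next clone, F9, stood at 7.67. BAT1, BAT6 and BAT8 stood at 7.21, 8.35 and 7.05, and 0 inguinal clones exceeded BAT6. The other Igf2 probe set was above the median in 0 arrays and did not follow the first (r = -0.33). Mest, a hydrolase-fold protein, ranged from 5.45 in X7 through 6.01 to 6.76 in M4, with 5.43, 6.56 and 6.20 in BAT1, BAT6 and BAT8. BAT1 lay below every inguinal clone for Mest and BAT6 near the top of the inguinal range. Peg10, a gene derived from a retrotransposon, ranged from 4.17 in I2 through 5.56 to 6.19 in B5, and A5, B5 and E4 were the only clones above the array median. The inguinal mean of Peg10 was 5.72 on scanner 1 and 5.26 on scanner 2, and the part of the scanner in its spread was not tested. Zim1, a zinc finger gene beside Peg3 that is expressed from the maternal allele in mice, stayed between 4.33 and 5.63 in the inguinal clones and at 4.91, 4.97 and 5.03 in the interscapular ones.

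Plagl1, a zinc finger transcription factor that slows the cell cycle and is known in mice to bind other imprinted genes, was lowest in A5 at 5.98 and X3 at 6.77, had a median of 8.68 and was highest in N13 at 10.15 and D12 at 10.14. In intensity units it ran from 47.2 through 394 to 1120, and it exceeded the array median in all 26 arrays. BAT1, BAT6 and BAT8 stood at 8.18, 9.01 and 6.71, spread over much of the inguinal range. The name of this probe set ends in x, which in the array's naming marks probes that can also bind other transcripts. The other Plagl1 probe sets, with inguinal means of 5.85 and 4.86, gave r = -0.30 and r = 0.40 with it, so the Plagl1 pattern rests on 1 probe set.

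Gnas encodes the stimulatory G protein subunit that couples receptors to adenylyl cyclase, the enzyme forskolin activates directly. It was lowest in X3 at 12.93 and N13 at 12.95, had a median of 13.37 and was highest in D16 at 13.64. The whole range was 0.72 on the log2 scale, or 1.64-fold. BAT1, BAT6 and BAT8 stood at 13.22, 13.35 and 13.60, within that range. Only 3.91% of kept genes had a smaller SD, and among the 500 kept genes nearest in level 24.4% did. The locus also makes imprinted transcripts from other promoters. The dim Gnas probe sets, which did not follow the bright one (r between -0.27 and 0.08), included 1 with an SD of 0.89 that ranged from 4.30 to 7.82.

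**Figure D2:**
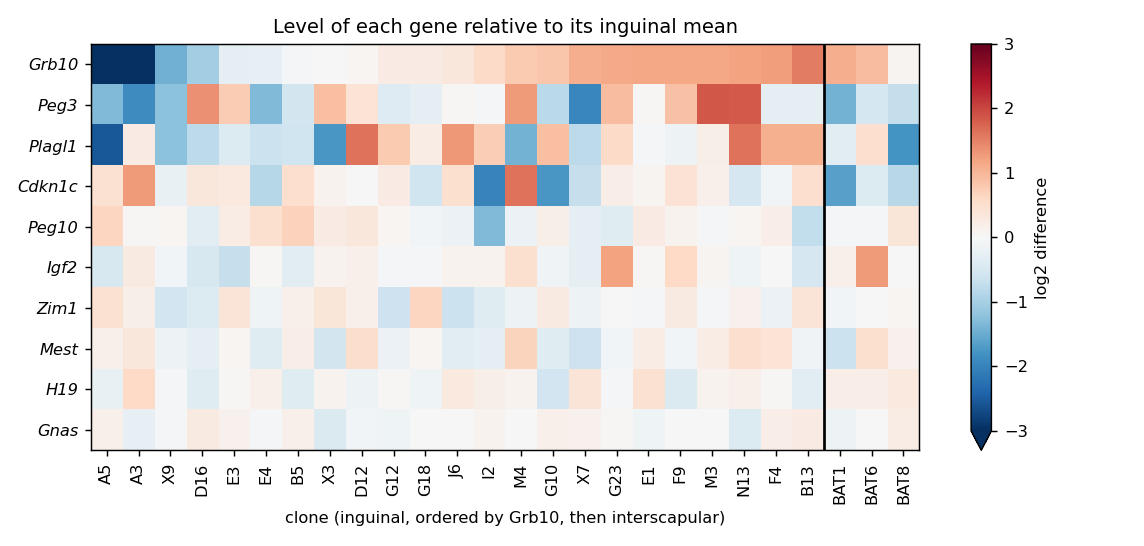
Levels of the imprinted growth genes by clone (columns, inguinal then interscapular), coloured by the difference in log2 units from the inguinal mean of each gene. Colours beyond the ends of the scale are drawn at its ends. A3 and A5 show the lowest Grb10 values. Both lie below the inguinal mean in Peg3, at 4.79 and 5.36, and above it in Cdkn1c, at 8.77 and 7.95. In Plagl1 they part, at 8.76 and 5.98.

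The depot comparison asked whether the imprinted growth genes stand at another level in the interscapular clones. In the limma fit over all kept genes, 0 of 9 imprinted growth genes passed an adjusted p of 0.05 and 1 passed an unadjusted p of 0.05, against 10.2% of all genes for the adjusted and 25.7% for the unadjusted threshold. The groups did not overlap for 0 of the 9, against 2.87% of all genes. The median difference, interscapular minus inguinal, was 0.02 for the 9 genes and -0.02 for all genes. With 3 interscapular clones the intervals are wide, and a difference that misses the threshold does not show equal levels.

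Cdkn1c was the gene with an unadjusted p under 0.05, a smaller share of the 9 than among all genes. It stood at 6.55 ± 0.63 (SD, n = 3) in the interscapular and 7.50 ± 0.82 (SD, n = 23) in the inguinal clones. The limma difference was -0.96 with a standard error of 0.46, a 95% interval from -1.90 to -0.01 and an adjusted p of 0.19. Peg3 differed by -0.89 (interval -2.14 to 0.37, limma adjusted p = 0.381) and Plagl1 by -0.54 (interval -1.84 to 0.75, limma adjusted p = 0.636). Igf2 differed by 0.47 (interval -0.06 to 1.01, limma adjusted p = 0.252), and by 0.07 without BAT6, the interscapular clone with the highest value. Grb10 differed by 0.70, with an interval from -1.22 to 2.61, and by 0.23 without A3 and A5 (limma adjusted p = 0.687 and 0.784). H19 differed by 0.23 (interval -0.14 to 0.59), Peg10 by 0.10, Mest by -0.02 and Gnas by 0.02, the last with an interval from -0.24 to 0.29. The median differences of the adipocyte, cell cycle and preadipocyte lists lay away from the -0.02 of all genes, though few of their genes passed. The median difference was 0.98 for adipocyte genes, of which 1 of 20 was higher past the threshold. It was -0.71 for cell cycle genes, with 4 of 28 lower, and -0.38 for preadipocyte and fibroblast genes, with 4 of 16 lower, again beside 10.2% of all genes called in either direction. Their part in the depot differences was not tested. In whole cultures, fewer cells that express a gene and less RNA per cell cannot be told apart.

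The next comparison asked whether the imprinted growth genes varied together over the 23 inguinal clones. All 45 pairs were computed, and the 36 pairs among the 9 kept genes were also read from limma regressions over all genes. Of these, 0 passed in either fit. Because A3 and A5 stand apart in Grb10, the 8 pairs with Grb10 are described over the other 21 clones and the remaining 28 over all 23. On that footing r ran from -0.49 to 0.47 with a median of 0.10, 21 pairs were above 0 and 14 below, and 29 were under 0.3 in size. A permutation p under 0.05 was reached by 3 pairs for r and by 3 for rho, which makes 4 pairs in all. These permutation p were not adjusted for the 36 pairs. The share of all gene pairs under 0.05 was not computed, so the count is not a result about the imprinted growth genes. A3 and A5 were left out after the values were seen. Leaving them out of pairs without Grb10 moved r as well. Mest with Peg3 went from 0.32 to 0.49, above the highest r just given, and Peg3 with Cdkn1c from 0.19 to 0.42. H19 with Gnas went from -0.49 to -0.42 and Mest with Cdkn1c from 0.47 to 0.43. With all 23 clones in every pair, Peg3 with Grb10 also passed for r. It gave r = 0.47 and rho = 0.38 (permutation p = 0.0199 and 0.0714). The regressions called 1.8% of all genes for Grb10, 0.479% for Plagl1, 0.793% for Gnas and 0% for each of the other 6.

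**Figure D3:**
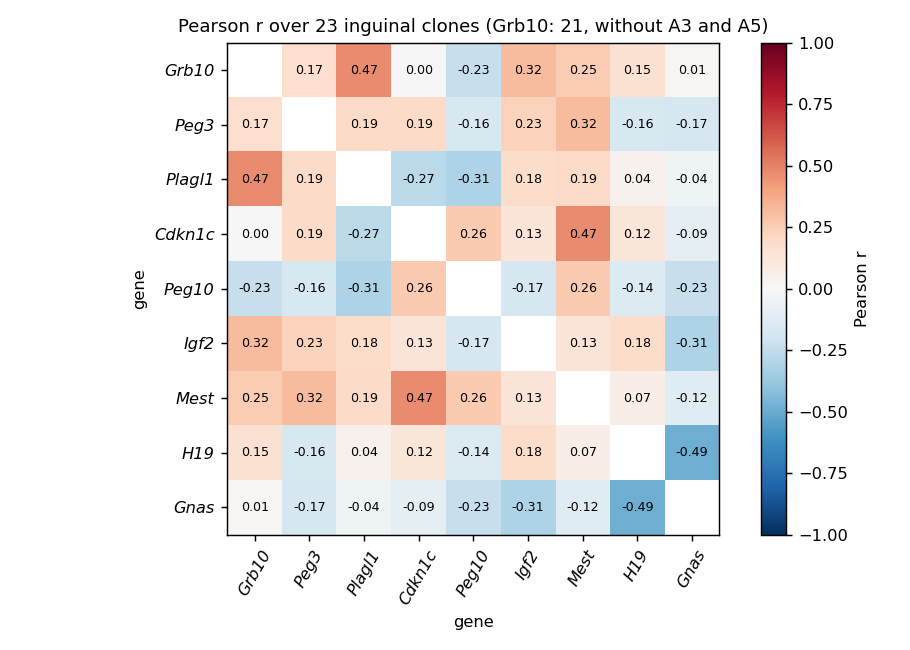
Pearson r for each pair of the 9 kept imprinted growth genes, with both axes listing the genes and colour giving r over the 23 inguinal clones, or over 21 clones without A3 and A5 for pairs with Grb10. Values run from -0.49 for H19 with Gnas to 0.47 for Plagl1 with Grb10 and for Mest with Cdkn1c.

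Pairs of an imprinted growth gene with another gene of its own domain were read next, and none of those given here had an r above 0.22. H19 and Igf2, which share enhancers and a methylation-sensitive control region, gave r = 0.18 and rho = 0.29 with a permutation p of 0.424 and 0.174, and r was 0.03 and 0.15 within the scanners. Peg3 and Zim1 gave r = 0.01, with Zim1 below the filter. Peg10 gave r = 0.22 with Sgce, which is transcribed away from it in the same domain, and Mest gave r = 0.22 with Copg2, which overlaps its end. Cdkn1c gave r = 0.13 with Kcnq1ot1, the antisense RNA known in mice to silence it on the paternal allele, r = 0.10 with Slc22a18 and r = 0.15 with Cd81. None of these neighbours passed the limma regression. Phlda2, Ddc, Usp29 and Ins2 lay below the filter.

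With the Grb10 pairs over 21 clones, 4 pairs had a permutation p under 0.05 for r or rho. They were picked after their values were seen. Plagl1 with Grb10 gave r = 0.47 and rho = 0.51 over 21 clones (permutation p = 0.0309 and 0.0204), with r = 0.56 and 0.36 within the scanners and 0.31 without the clones farthest in Grb10. Mest with Cdkn1c gave r = 0.47 and rho = 0.33 over 23 clones (permutation p = 0.0228 and 0.119), with r = 0.30 and 0.65 within the scanners and 0.37 without the clones farthest in Mest. H19 with Gnas gave r = -0.49 and rho = -0.53 (permutation p = 0.0168 and 0.0107), with -0.56 and -0.54 within the scanners and -0.40 without the clones farthest in H19. With the Gnas probe sets averaged this r was 0.32. That average adds the dim probe sets, which did not follow the bright one, so it cannot check the bright one. The r of -0.49 therefore describes the bright Gnas probe set alone. Igf2 with Gnas passed for rho alone, with r = -0.31 and rho = -0.51 (permutation p = 0.147 and 0.0148), with r = -0.42 and -0.28 within the scanners and -0.43 without the clones farthest in Igf2. Of the other pairs with Grb10, Peg3 gave r = 0.17, Igf2 0.32 and Cdkn1c 0.00 over the 21 clones. The limma adjusted p of the 4 pairs over 23 clones lay at 0.174 or above in both fits.

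Over all genes, the ones most like Grb10, Peg3 and Plagl1 were sought by Pearson r over the 23 inguinal clones, the highest 5 and the lowest 3 for each. For Grb10 the highest were LOC102631979, Hoxc8, Fam107b, Casp1 and Tm9sf2, and the lowest Ebf3, Abhd11os and Syce2. Over the 21 clones without A3 and A5, r was 0.85 for LOC102631979, 0.47 for Fam107b, 0.30 for Hoxc8, 0.18 for Tm9sf2, 0.10 for Casp1, 0.31 for Ebf3, 0.10 for Abhd11os and -0.27 for Syce2. LOC102631979 is a non-coding RNA annotated inside Grb10, and whether its probe set also reports Grb10 transcripts was not tested. It stood at 4.62 in A3 and 5.07 in A5 and had a median of 6.50 and a maximum of 7.73 in F4. Among 229 genes called in the limma regression on Grb10, 132 ran with it and 97 against it, and without A3 and A5 only LOC102631979 was called. Without A5 alone 18 genes were called and without A3 alone 29. Ebf3, a transcription factor gene, was picked by its r with Grb10, which A3 and A5 set (rho = 0.02 over the 23 clones). It stood at 8.20 in A3 and 7.44 in A5, against an inguinal mean of 5.0 that includes both. In BAT1, BAT6 and BAT8 it stood at 7.73, 7.47 and 6.86.

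For Plagl1 the highest were Fgfr2, Zfhx4, Tmem100, Abcc3 and Mab21l1, and the lowest Lims2, Metrnl and Camk1. Fgfr2, a receptor for fibroblast growth factors, gave r = 0.91 and rho = 0.91 with a limma adjusted p of 2.64e-06. Its r was 0.92 and 0.88 within the scanners and 0.85 without A5 and X3, the clones farthest in Plagl1. Fgfr2 ran from 5.66 in A5 through 7.70 to 8.94 in F4, and a second Fgfr2 probe set gave r = 0.78. Zfhx4, a homeobox transcription factor, gave r = 0.85, and 0.79 without A3 and A5. Tmem100, a small membrane protein, gave r = 0.84, and 0.81 without A3 and A5. The interscapular clones followed the Plagl1 order in Abcc3, at 7.62, 8.06 and 7.21 in BAT1, BAT6 and BAT8. In Metrnl they stood in the reverse order, at 10.73, 10.62 and 10.95. They followed neither in Fgfr2, Zfhx4, Tmem100 and Mab21l1 nor, reversed, in Lims2 and Camk1. BAT6, the highest of them in Plagl1 at 9.01, was the lowest in Tmem100 at 5.39, against 8.44 in BAT1 and 6.44 in BAT8. It was also the lowest in Zfhx4 at 5.95, against 8.09 and 6.71, while Fgfr2 stood at 7.24, 6.75 and 6.31 in BAT1, BAT6 and BAT8. In the opposite direction Lims2, an adhesion protein, gave r = -0.81 and fell from 10.50 in X9 to 6.13 in N13. In all, 61 genes were called for Plagl1, 38 with it and 23 against it. Without A3 and A5 the number was 16, of which 12 were among the 61. Leaving out 1 clone moved the number by over 1.5 times for A5 (18), X3 (17), J6 (35), G12 (40) and D12 (162). Plagl1 gave r = 0.57 with the mean of the preadipocyte and fibroblast genes, and the part of that mean in these relations was not tested.

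**Figure D4:**
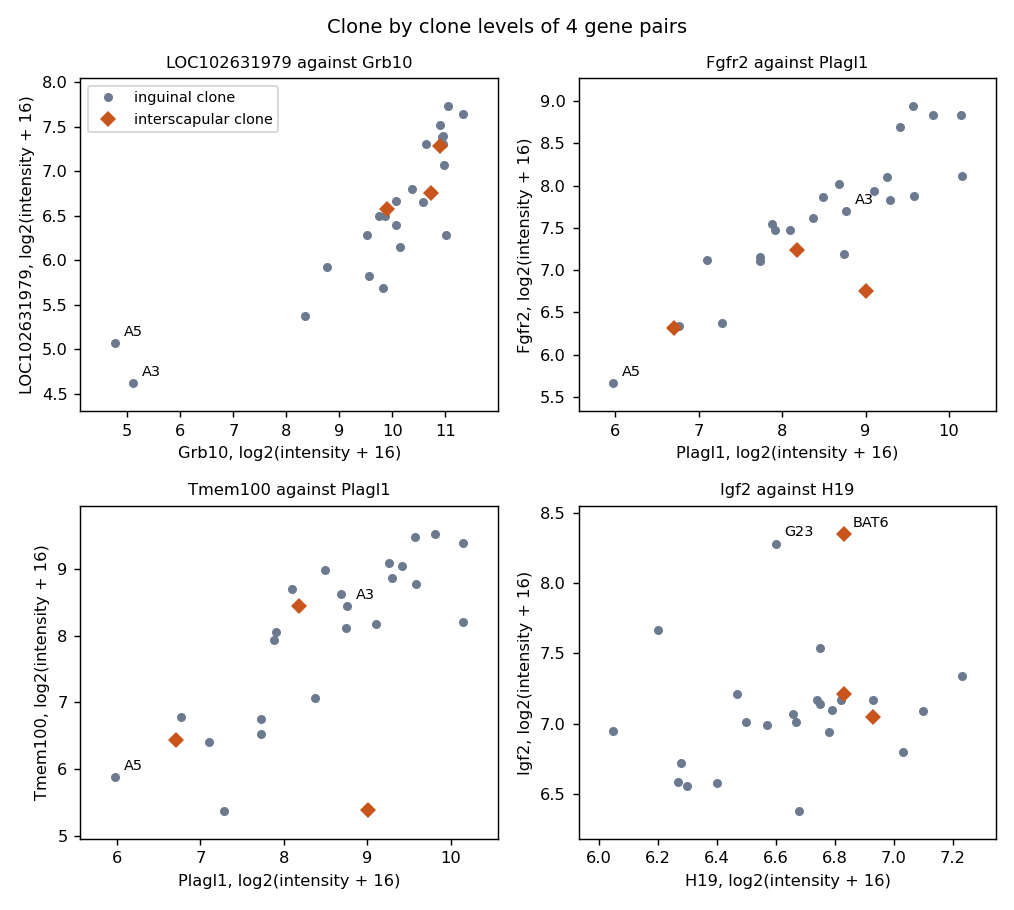
Levels in log2(intensity + 16) of LOC102631979 against Grb10, Fgfr2 and Tmem100 against Plagl1, and Igf2 against H19, with 1 point per inguinal clone (n = 23) and 1 diamond per interscapular clone (n = 3). A3 and A5 lie apart from the other 21 inguinal clones in Grb10, and Fgfr2 follows Plagl1 with r = 0.91.

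For Peg3 the highest were Mavs (r = 0.76), Dpp3, Gm3912, Tkfc and Vps25, and the lowest Rnf217 (r = -0.79), Snapc1 and Rictor. None passed, with limma adjusted p between 0.0634 and 0.30. Gnas had 101 genes called, 66 with it and 35 against it. With scan session or with chip lot as a block 0 genes were called in limma. The count was also 0 without N13, 350 without A5 and 309 without A3 and A5. It was 21 without B13, 46 without G10, 47 without F4, 55 without B5, 61 without G23, 163 without D16 and 201 without E1.

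The clones differed in how far they had differentiated. The mean level of 20 adipocyte genes ran from 8.16 in I2 to 11.58 in D12, and Adipoq, which encodes adiponectin, from 9.19 to 14.13. Of the 7 endothelial markers, 1 passed the filter. So did 6 of 10 macrophage and leukocyte, 6 of 10 skeletal muscle and 7 of 8 smooth muscle markers on the array. Over all named genes the filter kept 12735 of 18194. None of the 9 imprinted growth genes passed in the limma regression on the adipocyte mean, against 10.3% of all genes. Cdkn1c came nearest, with a limma adjusted p of 0.0673. Its slope was 0.45 per log2 unit of the adipocyte mean, with a standard error of 0.16. Its r was 0.50 and rho 0.35 (permutation p = 0.0149 and 0.105). Without I2 and G10, the clones farthest from the median adipocyte mean and the lowest in Cdkn1c, r was 0.14, so the relation rests on them. It was 0.34 and 0.65 within the scanners. Without A3 and A5 the slope was 0.52 with a limma adjusted p of 0.0211, and over all alternatives the adjusted p ran from 0.0211 to 0.627. It was 0.0338 without A3 alone and 0.0403 without E4 alone. Cdkn1c gave r = -0.47 with the cell cycle mean. Grb10 had a slope of 0.11 and Peg3 of 0.24, with limma adjusted p of 0.905 and 0.59.

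Partners of the imprinted growth genes were read from lists in the depot comparison. Of 39 other imprinted genes kept, 3 were higher and 1 lower in the interscapular clones, a share near the 10.2% of all genes. The 3 higher genes, Pon3 at 1.13, Tfpi2 at 1.43 and Ppp1r9a at 0.45 lie on chromosome 6 near Peg10 and Sgce. Other kept genes there did not pass, with Peg10 at 0.10, Sgce at -0.31, Asb4 at -1.03 and Pon2 at 0.51, so the genes of this domain had no common direction. Blcap was lower, by -0.68. Among the 20 kept Igf and insulin partners, the insulin receptor gene Insr was higher by 1.0, and the kinase gene Akt1 at -0.96 and the Igf-binding gene Igfbp6 at -0.77 were lower. Among 6 inhibitors of cyclin-dependent kinases, Cdkn2c was higher by 1.63. Among 16 Gs and adenylyl cyclase genes, the regulatory subunit gene Prkar1b at -3.03, Gnb2 at -0.92 and Adcy6 at -0.62 were lower. Among 16 imprint maintenance factors, the co-repressor gene Trim28 was lower by -0.43. The median differences of the 5 lists lay between -0.20 and 0.13, against -0.02 for all genes. These 12 genes passed the limma threshold with 3 interscapular clones. Without BAT6 only Prkar1b passed, and the other 11 had limma adjusted p between 0.065 and 0.359. The differences without BAT6 were 1.41 for Tfpi2, 1.17 for Pon3, 1.52 for Cdkn2c and -0.91 for Gnb2, close to those with it, while that of Igfbp6 was -0.42. Within scanner 1, with BAT8 as the only interscapular clone, Prkar1b differed by -1.83 with a limma adjusted p of 0.125. Without BAT1 the calls of Pon3, Cdkn2c, Adcy6 and Trim28 were lost, and without BAT8 those of Tfpi2 and Ppp1r9a.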

How the data were processed

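The authors deposited a table of linear intensities, with 1 value for each probe set of each of the 26 arrays. The probe summary and any scaling by the authors are not given in the sources used here. Values were used as log2(intensity + 16) without further scaling, computed here from the deposited intensities. Of 45101 probe sets, 64 were controls, 34958 carried 1 symbol in the platform annotation, 932 several and 9160 none; only those with 1 symbol were used, plus the H19 probe set shared with Mir675. Of these, 34754 matched a RefSeq table (GRCm38.p6). Each gene was represented by its brightest probe set.

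Depots, member levels and the adipocyte mean were fitted with limma 3.58.1 (R 4.3.3; lmFit, eBayes, two-sided, Benjamini-Hochberg over all kept genes, threshold 0.05). Correlations used 100000 permutations. Named genes were the 10 members, the 5 highest and 3 lowest correlates of the 3 members with the largest SD, up to 6 called genes per partner list, and domain neighbours. Members and lists were chosen with earlier results of these data known. Scanner, scan session and chip lot came from the deposited experiment files. Correlations between arrays lay between 0.931 and 0.987, and 0 pairs were identical. Scripts were tested on simulated data. Alternatives covered scaling, probe set choice, pseudocount, filter, batches, covariates and left-out clones. The number of arrays limits precision. Figures used matplotlib 3.10.9.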

Additional observations from a re-analysis of the deposited data

How the results depend on the processing

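No imprinted growth gene passed by depot in any of 22 alternatives, and no pair passed in any of 43. Among alternatives, 1299 genes called by depot became 542 at an adjusted p of 0.01, 101 and 644 within scanners 1 and 2, 550 and 208 within scan sessions 1 and 2, 803 with the adipocyte mean as a covariate, and 440 to 883 without 1 interscapular clone. The alternatives for the counts of genes called with Grb10, Plagl1 and Gnas were chosen after seeing the data. Genes called with Grb10 (229) became 1 without A3 and A5, 131 with session and 126 with lot as a block, and 18 to 333 without 1 clone. For Plagl1 (61) these were 16, 34, 15 and 17 to 162. For Gnas (101) they were 309, 0, 0 and 0 to 350, with 235 and 266 after the adipocyte and cell cycle covariates. The number of imprinted growth genes called with the adipocyte mean (0) was 1 without A3 and A5, and 0 to 1 without 1 clone.

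Some values changed sign, small and larger ones, and the cause was not tested. Among the larger ones, the main depot difference was 0.70 for Grb10 and -0.54 for Plagl1. The main r was -0.49 for H19 with Gnas, -0.84 for Grb10 with Ebf3 and -0.83 for Grb10 with Abhd11os. The depot difference of Mest became 0.01 without A3 and A5, 0.00, 0.01 and 0.08 with scanner, session and lot as blocks, 0.06 within scanner 1, 0.74 within session 2, 0.02 with array weights and 0.03 with the adipocyte covariate. That of Gnas became -0.04 with probe sets averaged, -0.03 and 0.00 with session and lot as blocks, and -0.09, -0.02 and -0.05 within scanner 2, session 1 and session 2. Grb10 became -0.05 within scanner 1, and Plagl1 0.10 and 0.07 within scanner 2 and session 2. Without 1 interscapular clone the range was -0.27 to 0.30 for Mest, -0.04 to 0.17 for Peg10, -1.07 to 0.08 for Plagl1 and -0.08 to 0.11 for Gnas. The r of H19 with Gnas was 0.32 with probe sets averaged. The r of Grb10 with Ebf3 was 0.31 and with Abhd11os 0.10 without A3 and A5, and 0.02 with Ebf3 by ranks. Slopes on the adipocyte mean changed sign for Gnas (0.05 with probe sets averaged, 0.01 within scanner 2), Grb10 (-0.20 without A3 and A5), Mest (0.05 and 0.04 with session and lot as blocks, 0.07 within scanner 2, 0.08 within session 1), Plagl1 (0.05 with lot), Peg10 (-0.05 within scanner 1) and Igf2 (-0.01 within scanner 2). Without 1 clone they ran from -0.09 to 0.22 for Grb10, -0.12 to 0.09 for Peg10, -0.08 to 0.01 for Mest and -0.05 to 0.01 for Gnas. Co-variation and differentiation were not run within session 2, which held 3 inguinal arrays. No paired analysis was possible because the replicate numbers only name clones and pair none across depots.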

Other observations

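Outside the genes above, Meg3, Rian and Dlk1 of the Dlk1 and Meg3 domain on chromosome 12 also varied among the inguinal clones. They were chosen after their values were seen. Meg3, a non-coding RNA expressed from the maternal allele in mice, ranged from 10.29 to 13.49 (SD 0.89), Rian, a further non-coding RNA of the domain, from 5.87 to 8.87 (SD 0.81) and Dlk1, an inhibitor of adipocyte differentiation, from 5.08 to 10.48 (SD 1.24). The interscapular clones BAT1, BAT6 and BAT8 stood at 12.15, 11.40 and 12.75 for Meg3 and at 6.62, 6.96 and 5.94 for Rian. For Dlk1 they stood at 7.99, 8.63 and 5.77. Meg3 with Rian gave r = 0.46 and rho = 0.51 (permutation p = 0.0273 and 0.0146, limma adjusted p = 0.176), and r = 0.38 without the clones farthest in Meg3. Within the scanners r was 0.30 and 0.66. Meg3 with Dlk1 gave r = 0.17. Mirg, another gene of the domain, had an SD of 0.32, equal to the median of all kept genes. Its r was 0.05 with Meg3 and 0.25 with Rian. Rian had a slope of -0.5 on the adipocyte mean (limma adjusted p = 0.0326), beside 10.3% of all genes called. The slope was -0.52 for Dlk1 and -0.24 for Meg3, and neither passed (limma adjusted p = 0.211 and 0.499). The part of differentiation in the relation of Rian to Meg3 was not tested.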
